A study of Rattus norvegicus with 30 samples.

Results

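The genes of the mitochondrial respiratory chain and ATP synthase were followed in rat hippocampal neurons exposed to the fumarate esters dimethyl fumarate (DMF) and monomethyl fumarate (MMF) and to the plant compound cannabidiol (CBD). Protein-coding genes were taken by symbol for the nuclear subunits (Ndufa, Ndufb, Ndufc, Ndufs and Ndufv, Sdha to Sdhd, Uqcr, Cox4 to Cox8 and Atp5) and by chromosome for the mitochondrial genome, and the nuclear and mitochondrial sets were kept apart. This gave 104 of the 21993 genes listed, of which 91 were nuclear and 13 mitochondrial. The nuclear set held 41 genes of complex I, 4 of complex II, 8 of complex III, 19 of complex IV and 19 of complex V, and 10 of the 91 carried a symbol that marks a pseudogene copy although the annotation calls them protein-coding. The mitochondrial set held 7 genes of complex I, 1 of complex III, 3 of complex IV and 2 of complex V.

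The series has 30 poly(A) RNA-seq libraries in 10 groups of 3, from wild-type primary neurons of Wistar embryos at embryonic day 18, kept for 7 days in culture. At 4 h and at 24 h there were groups given 30 µM DMF, 30 µM MMF or the vehicle DMSO, and groups given 6 µM CBD or the vehicle ethanol (EtOH), with vehicle at 0.2% in every group. The experiment was repeated 3 times, and the sources do not say whether each repeat came from separate litters, so p-values measure only the spread between these libraries. Each library had 15108132 to 25367834 reads on genes. Summed markers of neurons (10 genes) lay between 4901 and 6485 CPM (reads scaled to a common library total) and those of astrocytes (7 genes) between 1823 and 4854, so the cultures were mixed. Markers of the oligodendrocyte lineage summed to 465 to 1093, of proliferating cells to 72.2 to 288, of endothelial cells and pericytes to 11.7 to 34.9 (4 of 5 markers listed), and of microglia to 1.17 to 10.1 CPM. In such bulk RNA, fewer cells of a type and less RNA per cell cannot be told apart.

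The respiratory chain moves electrons from NADH and succinate to oxygen. Complex I (NADH dehydrogenase) and complex II (succinate dehydrogenase) feed electrons to ubiquinone, complex III passes them to cytochrome c, and complex IV (cytochrome c oxidase) gives them to oxygen, while complexes I, III and IV pump protons that drive ATP synthase, complex V. Most subunits are encoded in the nucleus, while core membrane subunits of complexes I, III, IV and V come from the mitochondrial genome, whose genes are transcribed together from long polycistronic RNAs, so the levels of single mitochondrial mRNAs also depend on how those RNAs are cut and how long each lasts. Neurons rely heavily on this pathway for ATP. DMF and MMF are esters of fumarate, itself the product of complex II, and MMF differs from DMF in having a free acid in place of a methyl ester.

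Nuclear respiratory genes are known targets of the factors NRF1 (nuclear respiratory factor 1, not the antioxidant factor Nrf2), GABP of the ETS family, and YY1. The promoters below are shown because their genes passed the limma test blocked on replicate number in DMF against DMSO at 4 h (Ndufs1, Uqcrfs1, Atp5f1e and Cox7a1) or are the 2 most abundant members with an NRF1 core before the start (Uqcrc1 and Atp5mc2). The 250 bases before the annotated start are from RefSeq (GRCr8), 5′ to 3′ on the gene's strand, with motif matches lying wholly within them in capitals.
Ndufs1, chr9:72073606-72073855, minus strand: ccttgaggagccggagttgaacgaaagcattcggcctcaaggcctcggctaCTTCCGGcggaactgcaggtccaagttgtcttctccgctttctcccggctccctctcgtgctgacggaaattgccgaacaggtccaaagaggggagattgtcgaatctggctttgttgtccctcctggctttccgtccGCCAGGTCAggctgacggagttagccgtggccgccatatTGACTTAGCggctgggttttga
Uqcrfs1, chr17:34186352-34186601, plus strand: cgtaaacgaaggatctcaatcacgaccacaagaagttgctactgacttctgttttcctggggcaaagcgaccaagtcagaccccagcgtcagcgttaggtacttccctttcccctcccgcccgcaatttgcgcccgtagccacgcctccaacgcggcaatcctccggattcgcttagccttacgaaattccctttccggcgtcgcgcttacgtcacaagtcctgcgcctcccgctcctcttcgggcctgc
Atp5f1e, chr3:183680173-183680422, minus strand: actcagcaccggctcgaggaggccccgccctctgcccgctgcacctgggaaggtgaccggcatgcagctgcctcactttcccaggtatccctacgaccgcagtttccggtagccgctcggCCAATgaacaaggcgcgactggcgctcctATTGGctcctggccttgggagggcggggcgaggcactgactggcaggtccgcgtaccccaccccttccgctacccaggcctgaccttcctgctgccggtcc
Cox7a1, chr1:94568966-94569215, plus strand: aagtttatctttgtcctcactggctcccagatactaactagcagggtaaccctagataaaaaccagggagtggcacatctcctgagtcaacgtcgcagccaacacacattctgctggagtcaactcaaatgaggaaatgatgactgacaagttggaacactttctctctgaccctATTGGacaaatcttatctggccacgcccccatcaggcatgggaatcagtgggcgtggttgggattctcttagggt
Uqcrc1, chr8:118467973-118468222, plus strand: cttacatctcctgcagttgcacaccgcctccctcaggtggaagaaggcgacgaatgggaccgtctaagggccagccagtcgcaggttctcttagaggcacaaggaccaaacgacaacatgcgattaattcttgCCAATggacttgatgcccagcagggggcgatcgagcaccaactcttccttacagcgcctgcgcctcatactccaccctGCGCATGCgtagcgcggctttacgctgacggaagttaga
Atp5mc2, chr7:135678219-135678468, minus strand: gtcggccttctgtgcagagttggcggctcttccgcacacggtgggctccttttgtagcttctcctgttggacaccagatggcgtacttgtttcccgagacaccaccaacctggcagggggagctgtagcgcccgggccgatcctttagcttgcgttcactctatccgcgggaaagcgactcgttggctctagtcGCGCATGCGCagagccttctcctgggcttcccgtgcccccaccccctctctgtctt

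The motifs searched on both strands were NRF1 (GCGCATGC), ETS (CCGGAAG), YY1 (AAGATGG), NF-Y (CCAAT) and the antioxidant response element (TGACNNNGC), over 300 bases from 250 before to 50 after the start, and no motif contains another. In these windows Ndufs1, a core iron-sulfur subunit of complex I, held an ETS match starting at position -199 and antioxidant response element matches at -61 and -22. Uqcrfs1, the Rieske iron-sulfur protein of complex III, held none of the 5 motifs. Atp5f1e, the epsilon subunit of ATP synthase, held NF-Y matches at -130 and -101, and Cox7a1, the heart and muscle form of a small complex IV subunit, held 1 at -75. Uqcrc1, a core protein of complex III, held NRF1 at -39, NF-Y at -117 and a YY1 match that begins at -1 and runs past the printed bases, and Atp5mc2, a c-ring subunit of ATP synthase, held overlapping NRF1 matches on both strands at -56 and -54.

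RefSeq promoters were found for 71 of the 91 nuclear gene IDs, and as 2 of the IDs share the symbol Cox6b1 this made 70 promoters. NRF1 was present in 9 of them (12.9%) against 2.47% of all 33469 promoters of the same length. ETS was present in 20 (28.6%) against 8.75%, and YY1 in 17 (24.3%) against 7.01%. At least 1 of these 3 motifs was found in 50.0% of the respiratory promoters and 16.8% of all promoters. NF-Y was in 32.9% against 37.5% and the antioxidant response element in 11.4% against 12.1%. A match is a run of letters and not a measured binding site. The set of all promoters was not matched to the respiratory ones for expression, coding status or base content. The higher percentages are therefore not shown to be particular to respiratory genes.

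**Figure D1:**
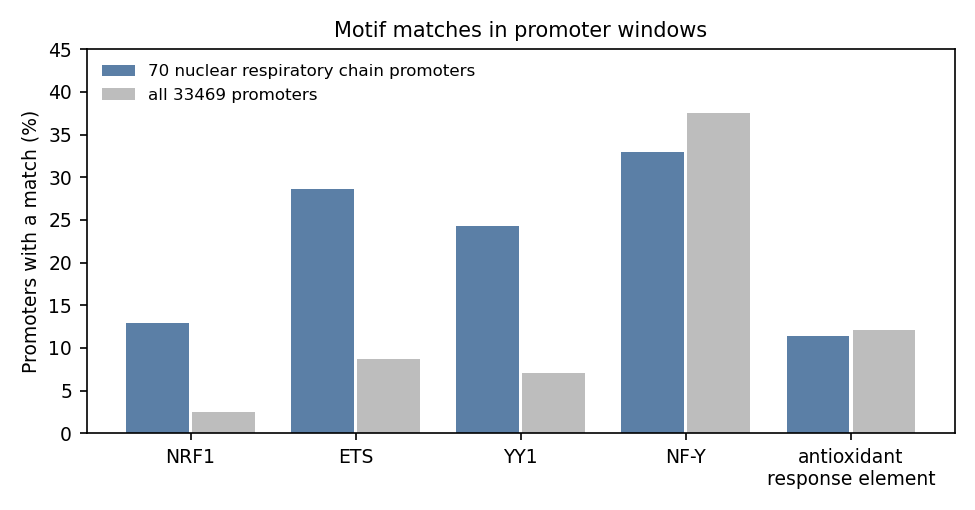
Share of promoter windows (%) with at least 1 match to each motif, for the 70 nuclear respiratory chain promoters (blue bars) and all 33469 RefSeq rat promoters (grey bars). The blue bar is the taller one for NRF1 (12.9% against 2.47%), ETS and YY1, and the shorter one for NF-Y and the antioxidant response element.

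The nuclear genes were steadily expressed over the 30 libraries. Levels are given as CPM for 1 gene across libraries, since transcript lengths of the nuclear genes were not used. Of the 91 nuclear members, 25 averaged above 100 CPM and 13 under 1 CPM, and in 66 the coefficient of variation over all libraries was under 10%. Summed by complex, complex I reached 2077 ± 82.5 CPM (SD, n = 30), complex II 538 ± 23.6, complex III 673 ± 27.8, complex IV 1368 ± 56.3 and complex V 3474 ± 163. In complex V, the catalytic beta subunit gene Atp5f1b stood at 1180 ± 68.9 CPM and the alpha subunit gene Atp5f1a at 730 ± 45.1. In complex IV these places went to Cox4i1, the ubiquitous form of subunit 4 (295 ± 11.3), and Cox6a1 (241 ± 18.6). Sdha, the flavoprotein of complex II, averaged 193 ± 10.6 and its membrane anchor Sdhc 130 ± 11.2. The core proteins of complex III, Uqcrc1 and Uqcrc2, averaged 167 ± 9.01 and 148 ± 7.26. Ndufv1, the subunit that binds NADH, and Ndufs1 led complex I with 130 ± 10.3 and 128 ± 9.37 CPM.

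Tissue-specific and copy genes made up the low end. Cox7a1 averaged 2.14 CPM beside 47.1 for the widely expressed Cox7a2, and Cox6a2, another muscle form, averaged 0.494 beside 241 for Cox6a1. Cox4i2, the alternative subunit 4, averaged 0.247 CPM with 6 of 30 libraries at 0. Ndufa4l2 stood at 3.76 CPM and Ndufa4 at 124 CPM. The symbol Cox6b1 belongs to 2 gene IDs, ENSRNOG00000024309 on chromosome 1 (120 CPM) and ENSRNOG00000066942 on chromosome 2 (3.56 CPM), and reads shared between such copies, and between genes and their pseudogene copies, are uncertain. In each comparison 79 to 81 nuclear members passed the filter on low counts, and 9 passed in none, 6 of them with pseudogene symbols.

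The mitochondrial set took 5.03% ± 0.706 of all gene reads (SD, n = 30, range 2.92 to 6.65%), against 0.813% ± 0.0319 for the 91 nuclear genes. Per kilobase of annotated gene length, Mt-co1 (subunit 1 of complex IV) was highest at 8443 CPM per kb, followed by Mt-co3 at 7958, Mt-atp6 at 7290 and Mt-co2 at 5117. The complex III gene Mt-cyb stood at 4722 and the complex I genes Mt-nd2, Mt-nd1 and Mt-nd4 at 4442, 3540 and 3333 CPM per kb. Lower values were seen for Mt-nd5 (1755), Mt-nd4l (1233), Mt-nd3 (1174), Mt-nd6 (999) and Mt-atp8 (115). No allowance was made for the size of the sequenced fragments or for how well poly(A) selection recovers each RNA. A lower value therefore need not be a lower level. With SDs over libraries such as 1019 for Mt-co1 and 1257 for Mt-co3, these neighbours in the order do not differ beyond their spread, whereas Mt-atp6 and Mt-nd5 are far apart. Mt-atp8 overlaps Mt-atp6, Mt-nd4l overlaps Mt-nd4, and Mt-nd6 overlaps Mt-nd5 on the other strand, and the strand setting of the counting was not given, so these values are uncertain.

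The mitochondrial share moved with the replicate number: in each of the 10 groups the library numbered 3 had the lowest share. Libraries numbered 1 averaged 5.66% ± 0.489 (n = 10), those numbered 2 5.00% ± 0.383 and those numbered 3 4.42% ± 0.597. The nuclear share was 0.799%, 0.829% and 0.811% in the same order. Summed astrocyte markers averaged 3885, 4179 and 2219 CPM in libraries numbered 1, 2 and 3, and their part in the mitochondrial share was not tested. Same-numbered libraries deviated together more than libraries of different numbers in all comparisons but MMF against DMSO at 4 h. There the lowest same-number correlation was 0.129 and the highest between different numbers 0.134. The fit with the replicate number as a block is therefore given beside the fit without it wherever it changes a call.

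**Figure D2:**
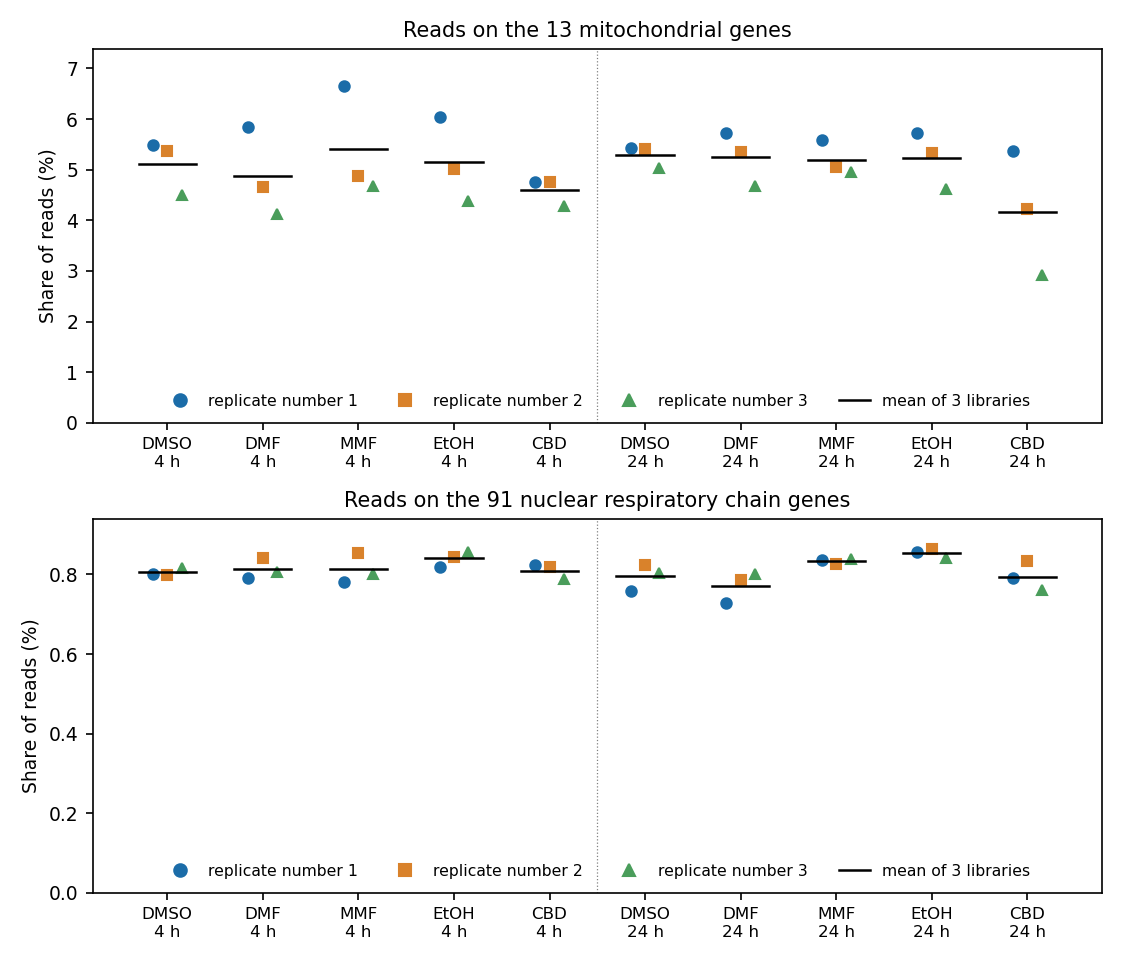
Share of all gene reads (%) that fell on the 13 mitochondrial genes (top) and the 91 nuclear respiratory chain genes (bottom) in each of the 30 libraries, grouped by treatment and time; points are libraries, coloured by replicate number, and bars are means of 3. Mitochondrial shares run from 2.92% to 6.65%, with the lowest point in CBD at 24 h, and nuclear shares from 0.727% to 0.863%.

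DMF was compared with DMSO to ask whether the drug altered the respiratory genes. At 4 h, log2 fold changes of the 81 nuclear members tested had a median of 0.04 (all genes 0.00), with 55 above 0, and those of the 13 mitochondrial genes a median of -0.04. The mitochondrial median was 0.06 without DMF library 3, 0.01 without DMSO library 1, -0.16 without DMF library 1 and -0.14 without DMSO library 3, so its sign rested on single libraries. Without the block, limma called 0 members at adjusted p under 0.05, while 3.41% of all genes were called, and DESeq2 and edgeR called 0. At unadjusted p under 0.05 there were 3 nuclear members, all higher, and 0 mitochondrial genes, against 20.1% of all genes. With the replicate block limma called 4 nuclear members, 2 higher and 2 lower, and 2 mitochondrial genes, both lower, where 23.0% of all genes were called, so the members' share was below that of all genes. EdgeR with the block also called 2 nuclear members higher and 2 lower, while DESeq2 with the block called 0 nuclear members and 2 mitochondrial genes. Of all 14208 genes tested, edgeR with the block called 1578 higher and 1634 lower, and DESeq2 with the block 877 higher and 858 lower. Among markers, 1 of 10 for neurons and 1 of 3 tested for endothelial cells and pericytes were called lower by limma in this comparison, and their part was not tested.

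Cox7a1 (chromosome 1, 85441871 to 85445151, mRatBN7.2) had 56.8, 72.0 and 73.3 normalized counts in the DMF libraries 1 to 3 and 42.0, 38.6 and 41.0 in the DMSO libraries. All DMF values lay above all DMSO values, with a log2 fold change of 0.71 ± 0.20 (SE, n = 3 per group, limma adjusted p = 0.0907, and 0.0218 with the block). Atp5f1e had 1451, 1474 and 1376 normalized counts against 1321, 1281 and 1177, again without overlap (log2 fold change 0.19 ± 0.07, limma adjusted p = 0.205, and 0.0279 with the block). Ndufs1 (chromosome 9, 64546225 to 64579893) went the other way, with 2324, 2337 and 2044 normalized counts under DMF and 2452, 2617 and 2470 under DMSO. The Ndufs1 groups did not overlap, at a log2 fold change of -0.17 ± 0.08 (limma adjusted p = 0.258, and 0.0332 with the block). Uqcrfs1, with 1623, 1852 and 1652 against 1839, 2024 and 1837 normalized counts, overlapped as groups but was lower under DMF within each replicate number (log2 fold change -0.15, limma adjusted p = 0.331, and 0.0492 with the block).

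Among mitochondrial genes at 4 h, Mt-nd1 (chromosome MT, 2740 to 3694), a membrane subunit of complex I, had 68232, 54108 and 49049 normalized counts under DMF and 72414, 67884 and 61359 under DMSO. The groups overlapped, with a wide range between replicate numbers, while DMF was lower within each number (log2 fold change -0.25, limma adjusted p = 0.448, and 0.00968 with the block). Mt-nd2, its neighbour on the genome and in complex I, had 101907, 76739 and 67832 against 103939, 99986 and 80489 normalized counts (log2 fold change -0.22, limma adjusted p = 0.608, and 0.0313 with the block). The 7 mitochondrial complex I genes, these 2 among them, had log2 fold changes between -0.25 and 0.03. Those of the 3 mitochondrial complex IV genes and Mt-cyb lay between -0.03 and 0.00. The 95% interval lay within ±0.5 for 73 of 81 nuclear members but only 7 of 13 mitochondrial genes, so changes of that size could be missed more easily in the mitochondrial set.

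At 24 h of DMF the nuclear genes sat slightly below DMSO. Of 79 nuclear members tested, 58 (73.4%) had a log2 fold change below 0, against 51.7% of all genes, with a median of -0.06 (all genes -0.01). Without DMF library 1 this median was 0.00, and without DMSO library 1 it was -0.10. All 7 tested complex III members and 31 of 37 nuclear complex I members were below 0. Limma called 0 members where 3.97% of all genes were called, and DESeq2 and edgeR called 0. At unadjusted p under 0.05, where 17.4% of all genes passed, there were 1 nuclear member (Ndufb11) and 1 mitochondrial gene (Mt-nd3), both lower. With the block, which called 12.9% of all genes, Mt-nd3 was the only member called.

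Mt-nd3 (chromosome MT, 9451 to 9798), a small membrane subunit of complex I, had 6784, 7533 and 6643 normalized counts in DMF and 8041, 9277 and 7466 in DMSO at 24 h. Groups overlapped by a single pair of values, and DMF was lower within each replicate number (log2 fold change -0.24, 95% interval -0.44 to -0.03, limma adjusted p = 0.214, and 0.0114 with the block). Atp5f1a had 11621, 12246 and 12526 normalized counts against 12893, 13764 and 13472, without overlap (log2 fold change -0.14, limma adjusted p = 0.314, and 0.0851 with the block). The 95% interval lay within ±0.5 for 69 of 79 nuclear and 12 of 13 mitochondrial genes.

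At 24 h the summed markers of proliferating cells were 72.2 to 87.9 CPM under DMF and 175 to 196 under DMSO, and all 5 were called lower by limma (median log2 fold change -1.04). Limma also called 3 of 7 oligodendrocyte lineage markers lower (median -0.27, summed level 587 to 731 against 729 to 889 CPM) and 1 of 7 astrocyte markers (median -0.19, summed level 2812 to 4854 against 2446 to 4100 CPM). Their part in the shift of the respiratory genes was not tested. Whether the DMF effect differed between times was tested as an interaction over 12 libraries. Limma called 0 members, with 4.12% of all genes called, and DESeq2 and edgeR also called 0. Counted by unadjusted p under 0.05, there were 3 nuclear members, all with a more negative effect at 24 h (Uqcrh -0.25, Ndufa2 -0.28 and Atp5mk -0.26 on the log2 scale), and 0 mitochondrial genes, against 19.3% of all genes. The block called 13.2% of all genes and 0 members.

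**Figure D3:**
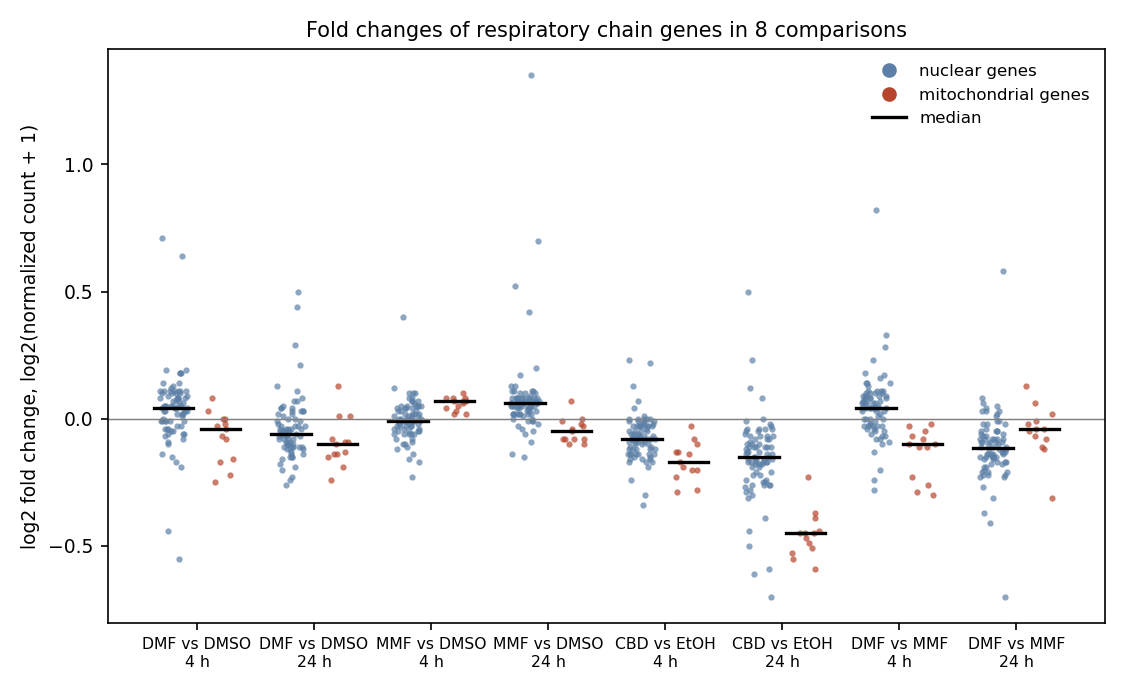
Log2 fold changes, on the scale log2(normalized count + 1), of every tested respiratory chain gene in the 8 comparisons; each point is a gene, blue nuclear and red mitochondrial, and bars are medians. The mitochondrial median is lowest in CBD against EtOH at 24 h (-0.45), where all 13 points lie below 0, and the nuclear median there is -0.15.

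MMF, given at the same dose as DMF, was compared with DMSO in the same way. At 4 h the nuclear median was -0.01 and the mitochondrial median 0.07, with all 13 mitochondrial genes between 0.02 and 0.10. The mitochondrial median within replicate numbers was 0.27, -0.16 and 0.06, so the sign was not shared, and it was -0.09 without MMF library 1 and -0.03 without DMSO library 3. Limma called 0 members with or without the block, DESeq2 and edgeR called 0, and 0 members had an unadjusted p under 0.05. Of all genes, 0% were called with or without the block and 0.257% had an unadjusted p under 0.05. The intervals of 73 of 80 nuclear and 8 of 13 mitochondrial genes lay within ±0.5.

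At 24 h of MMF, 69 of 81 nuclear members (85.2%) had a log2 fold change above 0, against 49.9% of all genes, with a median of 0.06. The nuclear median within replicate numbers was 0.15, -0.02 and 0.05, so the sign was not shared. The nuclear share of reads was 0.835, 0.825 and 0.839% under MMF and 0.760, 0.824 and 0.805% under DMSO, so all MMF values were the higher, MMF 2 by very little (exact permutation p = 0.1, the smallest that 3 against 3 libraries can give, and 0.267 after adjustment over 8 comparisons). Limma called 0 members, where 0.00707% of all genes were called, and DESeq2 and edgeR called 0. At unadjusted p under 0.05, which 4.43% of all genes passed, there were 2 nuclear members and 0 mitochondrial genes. These were Ndufb4, an accessory subunit of complex I, with 977, 1008 and 1062 normalized counts against 848, 938 and 860 (log2 fold change 0.20, limma adjusted p = 0.952), and Atp5mf, a membrane subunit of ATP synthase, with 2167, 2056 and 2072 against 1793, 1993 and 1956 (log2 fold change 0.13, limma adjusted p = 0.952). Neither gene's groups overlapped, which is no added support, as both were named for their small p. The block called 1.38% of all genes and 0 members. The intervals of 72 of 81 nuclear and 13 of 13 mitochondrial genes lay within ±0.5.

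DMF and MMF, which differ by a methyl ester, could be compared directly at the same dose and times, as 1 pair of compounds at 2 times. These comparisons share the DMF libraries with those against DMSO and are not independent of them. At 4 h the nuclear median difference (DMF minus MMF) was 0.04 and the mitochondrial median -0.10, with all 13 mitochondrial genes between -0.30 and -0.02. Without MMF library 1, whose mitochondrial share was the highest of all, the mitochondrial median was 0.04, and without any other single library it lay between -0.21 and -0.02. The nuclear median was 0.00 without MMF library 1 and 0.09 without MMF library 2. In limma, 0 members and 1.61% of all genes were called, and DESeq2 and edgeR called 0 members. With an unadjusted p under 0.05 it found 1 nuclear member higher and 2 lower, and 0 mitochondrial genes, against 17.4% of all genes. With the block, which called 23.6% of all genes, 4 nuclear members (2 higher, 2 lower) and 4 mitochondrial genes (all lower) were called.

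The nuclear calls at 4 h were again on Cox7a1, Ndufs1 and Uqcrfs1, joined by Cox5a, a matrix-side subunit of complex IV. Cox7a1 had 56.3, 71.2 and 72.4 normalized counts under DMF and 34.6, 43.1 and 33.8 under MMF, without overlap (log2 fold change 0.82 ± 0.21, limma adjusted p = 0.0944, and 0.00621 with the block). Ndufs1 had 2301, 2311 and 2019 against 2727, 2564 and 2546, also without overlap (log2 fold change -0.24 ± 0.08, limma adjusted p = 0.165, and 0.0047 with the block). Uqcrfs1 (log2 fold change -0.20, block adjusted p = 0.0153 by limma) and Cox5a (0.18, block adjusted p = 0.0378 by limma) overlapped as groups and differed in 1 direction within each replicate number. The 4 mitochondrial genes were all of complex I. Mt-nd1 had 67560, 53511 and 48458 normalized counts under DMF and 79429, 65530 and 60923 under MMF (log2 fold change -0.29, limma adjusted p = 0.481, and 4.24e-04 with the block). Mt-nd2 (-0.30, block adjusted p = 4.92e-04 by limma), Mt-nd4 (-0.23, 0.00295) and Mt-nd4l (-0.26, 0.00129) followed. The other mitochondrial complex I genes were not called, with Mt-nd3 at -0.10, Mt-nd5 at -0.11 and the one nearest 0 at -0.05. Mt-cyb and the complex IV genes differed by -0.10 to -0.03, and Mt-atp6 by -0.11. Intervals without the block lay within ±0.5 for 72 of 79 nuclear members and 1 of 13 mitochondrial genes, so without the block no likeness of the 2 compounds can be read from the mitochondrial set.

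At 24 h, 70 of 80 nuclear members (87.5%) were lower under DMF than under MMF, against 51.9% of all genes, with a median difference of -0.11. The nuclear median within replicate numbers was -0.26, -0.04 and -0.07, so the libraries numbered 1 differed most. Summed, the nuclear genes took 0.727, 0.786 and 0.800% of reads under DMF and 0.835, 0.825 and 0.839% under MMF, without overlap (exact permutation p = 0.1, the smallest possible, and 0.267 after adjustment over 8 comparisons). In limma, 0 members and 3.56% of all genes were called. Of members with an unadjusted p under 0.05, 10 nuclear members and 1 mitochondrial gene were lower and 1 nuclear member (Cox7a1) higher, where 17.3% of all genes passed, 9.18% on the lower side. DESeq2 called 1 member, Mt-nd3, with 5.83% of all genes called, and edgeR called 0. The block, which called 12.2% of all genes, called 3 nuclear members and Mt-nd3, all lower.

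Mt-nd3 had 7499, 8328 and 7331 normalized counts under DMF and 9800, 9233 and 9663 under MMF at 24 h. All 3 DMF values were lower, with a log2 fold change of -0.31 (95% interval -0.47 to -0.15, limma adjusted p = 0.0523, and 0.0102 with the block). Ndufb11, an accessory subunit of the complex I membrane arm, had 1110, 1223 and 1305 against 1443, 1370 and 1568 (log2 fold change -0.27, limma adjusted p = 0.14, and 0.0267 with the block). Ndufv1 had 2220, 2380 and 2668 against 2765, 2917 and 2804 (log2 fold change -0.23, limma adjusted p = 0.175, and 0.0461 with the block). Atp5f1a had 12845, 13537 and 13824 against 15271, 15385 and 15101 (log2 fold change -0.19, limma adjusted p = 0.186, and 0.0492 with the block). In these 3 genes too, no DMF value reached the MMF values, which is no added support, as they were named for their small p. Uqcrh, the hinge protein of complex III, and Atp5mc2 differed by -0.21 each (limma adjusted p with the block 0.055 and 0.0526). Markers of proliferating cells, all 5 of which were called lower by limma (median log2 fold change -1.21), moved in the same comparison, as did 3 of 7 oligodendrocyte lineage markers, called lower (median -0.17), and the part of either was not tested. Intervals lay within ±0.5 for 70 of 80 nuclear and 12 of 13 mitochondrial genes.

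**Figure D4:**
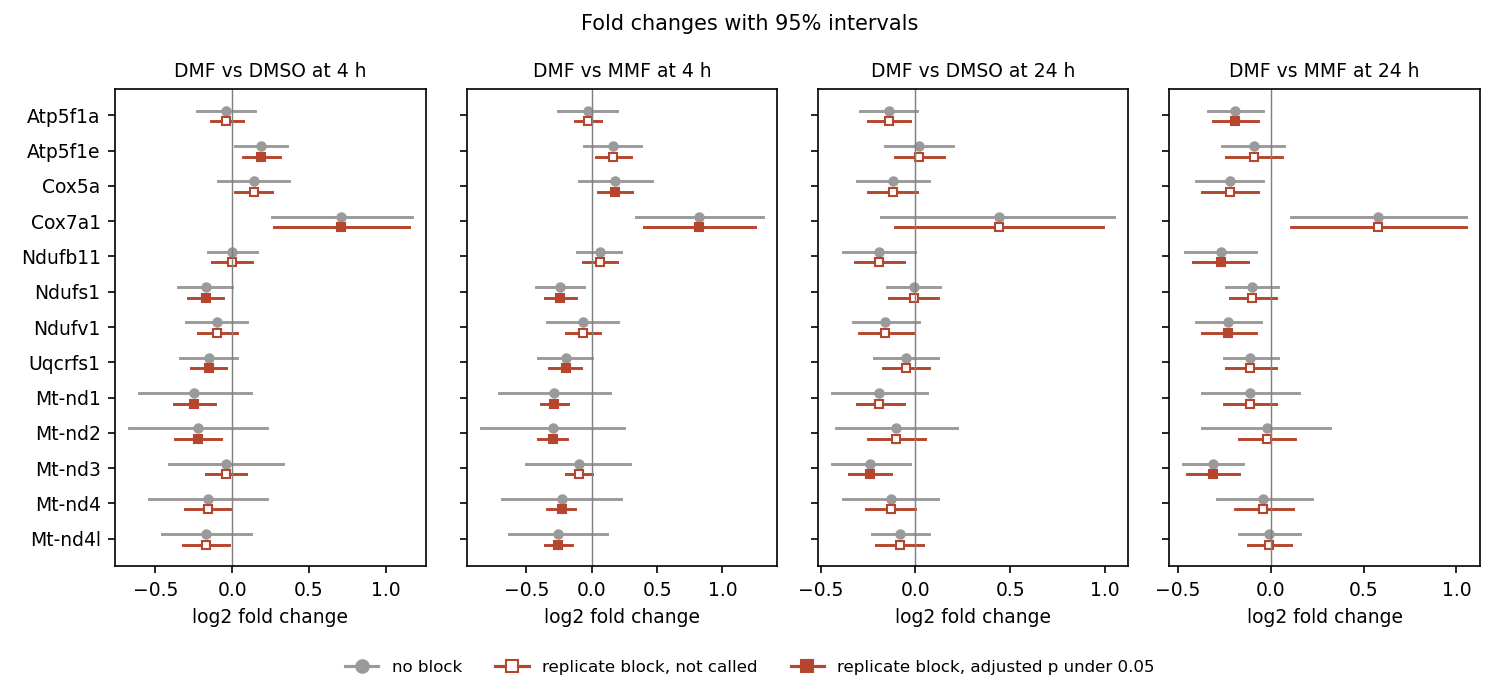
Log2 fold changes with 95% intervals (n = 3 libraries per group, limma) for the members called with the replicate block in DMF against DMSO or MMF, at 4 h and 24 h; grey circles are the fit without the block, red squares the fit with it, filled where adjusted p was under 0.05. Intervals of mitochondrial genes at 4 h narrow most with the block, as for Mt-nd1 in DMF against MMF (-0.29).

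CBD was compared with its own vehicle, EtOH. At 4 h, 73 of 81 nuclear members (90.1%) and 13 of 13 mitochondrial genes had log2 fold changes below 0, against 50.3% of all genes, with medians of -0.08 and -0.17 (all genes 0.00). Within replicate numbers the mitochondrial median was -0.33, -0.07 and -0.05, and it was -0.05 without EtOH library 1 and -0.27 without EtOH library 3. The nuclear median was -0.05 without CBD library 3. Limma called 0 members and 0.00705% of all genes, and DESeq2 and edgeR called 0 members. At unadjusted p under 0.05 there were 4 nuclear members, all lower, and 0 mitochondrial genes, while 3.97% of all genes passed. With the block (2.33% of all genes called), 1 nuclear member and 1 mitochondrial gene were called, both of complex I and both lower.

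These were Ndufa13, also known as GRIM-19, and Mt-nd3. Ndufa13 had 826, 869 and 782 normalized counts under CBD and 983, 993 and 956 under EtOH, without overlap (log2 fold change -0.24 ± 0.07, limma adjusted p = 1.0, and 0.0271 with the block). Mt-nd3 had 8181, 6817 and 5833 against 9740, 8310 and 7322, overlapping as groups but lower within each replicate number (log2 fold change -0.29, limma adjusted p = 1.0, and 8.06e-04 with the block). Uqcrq, a small subunit of complex III, had 1855, 1890 and 1887 against 2079, 2064 and 2128 (log2 fold change -0.15, limma adjusted p = 1.0, and 0.0989 with the block). Intervals within ±0.5 covered 72 of 81 nuclear and 4 of 13 mitochondrial genes.

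At 24 h of CBD both sets lay further below the vehicle, and the spread between the CBD libraries was wide. The mitochondrial share of reads was 5.37, 4.22 and 2.92% in CBD libraries 1, 2 and 3 and 5.72, 5.33 and 4.62% in the EtOH libraries. Every CBD value was below the same-numbered EtOH value, but the groups overlapped (mean 4.17% ± 1.23 against 5.22% ± 0.56, log2 ratio -0.32, exact permutation p = 0.3, and 0.9 after adjustment over 8 comparisons). The mean of log2 ratios within replicate numbers was -0.36 (exact sign-flip p = 0.25, the smallest 3 pairs can give). The log2 ratio of the group means was -0.12 without CBD library 3 and -0.55 without CBD library 1. Nuclear members took 0.790, 0.833 and 0.761% of reads against 0.855, 0.863 and 0.840%, without overlap (exact permutation p = 0.1, and 0.267 after adjustment). In the other 7 comparisons the mitochondrial shares overlapped too, with exact permutation p between 0.4 and 0.9.

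By gene, 76 of 80 nuclear members and 13 of 13 mitochondrial genes were below 0 at 24 h of CBD, against 50.9% of all genes, with medians of -0.15 and -0.45 (all genes 0.00). The mitochondrial median within replicate numbers was -0.14, -0.44 and -0.80, and the nuclear one -0.13, -0.06 and -0.25. Without CBD library 3 the mitochondrial median was -0.22 and the nuclear one -0.10, and without CBD library 1 the mitochondrial median was -0.66. In limma, 0 members and 0.114% of all genes were called, and DESeq2 and edgeR without the block called 0 members. Counted by unadjusted p under 0.05, there were 15 nuclear members and 2 mitochondrial genes, all lower, where 9.83% of all genes passed, 5.11% on the lower side. With the block limma called 0.504% of all genes and 0 members, edgeR 0 members, and DESeq2 9 mitochondrial genes, all lower, and 2.12% of all genes.

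The mitochondrial members with the smallest p were the ATP synthase genes. Mt-atp6 (chromosome MT, 7919 to 8599) had 90549, 73113 and 51945 normalized counts under CBD and 106623, 103813 and 93480 under EtOH, without overlap (log2 fold change -0.53, 95% interval -1.03 to -0.03, limma adjusted p = 0.489). Mt-atp8, at far lower counts of 351, 372 and 276 against 410, 616 and 453, also did not overlap (log2 fold change -0.55, limma adjusted p = 0.413). Mt-co1 had the change nearest 0, with 274575, 224383 and 160773 against 272069, 243306 and 239604 normalized counts (log2 fold change -0.23, 95% interval -0.82 to 0.37).

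Among nuclear members at 24 h of CBD, Cox7c, a small subunit of complex IV, had 1845, 1869 and 1749 normalized counts against 2459, 2097 and 2117 (log2 fold change -0.29, limma adjusted p = 0.396). Cox6b1 on chromosome 1 had 2013, 2216 and 1919 against 2375, 2554 and 2434 (log2 fold change -0.26, limma adjusted p = 0.413), and Uqcrh 1484, 1358 and 1161 against 1785, 1581 and 1561 (log2 fold change -0.30, limma adjusted p = 0.448). In these 3 genes the groups did not overlap, which is no added support, as they were named for their small p. The interval was within ±0.5 for 60 of 80 nuclear genes and for 0 of 13 mitochondrial genes, of which 6 lay within ±1, so in most mitochondrial genes a change of 1 on the log2 scale stayed within the interval. Neuronal markers had a median log2 fold change of -0.25 and astrocyte markers of -0.37 in the same comparison, with 2 of 10 and 0 of 7 called lower by limma, and their part was not tested.

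The mitochondrial genes were also compared with each other, as the share of each in all mitochondrial reads. This measure was added after seeing the data, and with 3 against 3 libraries its exact permutation p cannot go below 0.1, so the values are given as a description. The share of mitochondrial reads on Mt-co1 (chromosome MT, 5323 to 6867) was 27.9, 27.4 and 28.1% under DMF at 24 h and 24.7, 24.1 and 25.9% under DMSO, without overlap (exact permutation p = 0.1). Under CBD at 24 h it was 27.5, 28.3 and 29.7% against 25.4, 23.7 and 26.5% under EtOH, again without overlap (exact permutation p = 0.1). In each of the 10 groups the library numbered 3, which had the lowest mitochondrial share of all reads, had a higher Mt-co1 share than the library numbered 1, and the highest Mt-co1 share (29.7%) was in the library with the lowest mitochondrial share (2.92%). The part of this in the group differences was not tested. MMF at 24 h, with 25.2, 25.5 and 26.1%, overlapped DMSO but not DMF, and at 4 h the Mt-co1 shares of each drug overlapped those of its vehicle.

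Several complex I genes took smaller shares under DMF, and Mt-nd6, also of complex I, a larger one at 4 h (1.06, 1.06 and 1.05% against 0.990, 1.02 and 0.952%). The shares within a library add up to a fixed total and are not independent. A larger share on any gene, such as Mt-co1 at 24 h, leaves less for the others. Mt-nd1 took 5.95, 5.87 and 5.80% of mitochondrial reads at 4 h against 6.7, 6.4 and 6.81% under DMSO, and 5.99, 6.37 and 6.18% at 24 h against 6.90, 7.26 and 6.59%, without overlap at either time. Mt-nd4 was lower without overlap at both times of DMF, with means of 8.61% against 9.15% at 4 h and 8.82% against 9.48% at 24 h. Mt-nd2 was lower at 4 h, with 8.88, 8.32 and 8.03% against 9.62, 9.42 and 8.93%, and overlapped at 24 h. Mt-atp6 was lower at 24 h under DMF (9.59, 9.67 and 9.51% against 10.2, 10.4 and 10.4%) and under CBD (9.07, 9.22 and 9.58% against 9.95, 10.1 and 10.3%). Mt-nd3 took 0.642, 0.755 and 0.760% under DMF at 24 h against 0.794, 0.915 and 0.789%, while Mt-co3 was higher under DMF at 4 h, with a mean of 13.2% against 12.6% and no overlap. Under MMF the shares overlapped DMSO except for Mt-nd4 at 24 h, with a mean of 9.13% against 9.48%, and under CBD at 4 h all 13 overlapped EtOH.

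**Figure D5:**
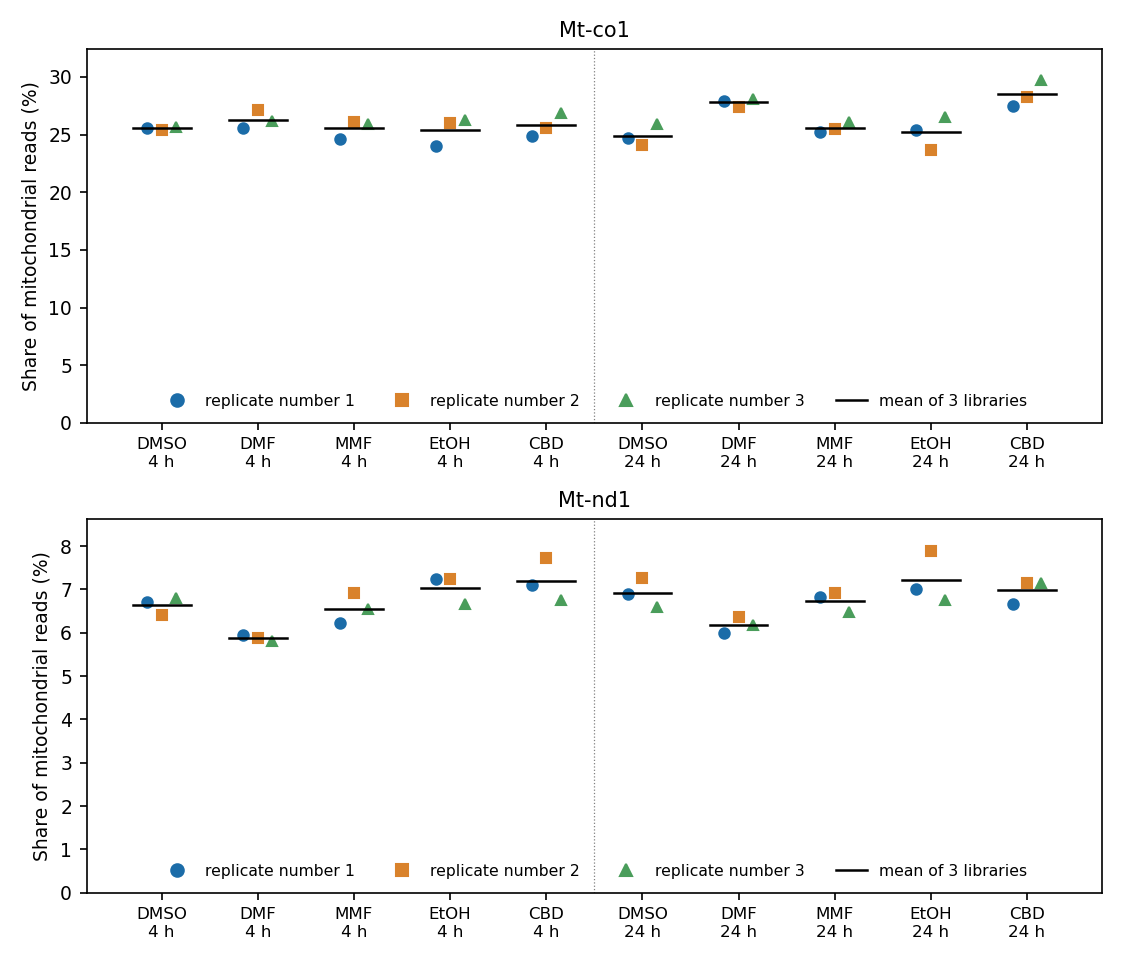
Share of the reads on the 13 mitochondrial genes (%) that fell on Mt-co1 (top) and Mt-nd1 (bottom) in each library, by treatment and time; points are libraries, coloured by replicate number, and bars are means of 3. Mt-co1 is highest in DMF and CBD at 24 h (means 27.8% and 28.5%) and Mt-nd1 lowest in DMF at 4 h and 24 h (5.87% and 6.18%).

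Genes that build and serve the chain were read from 5 further lists. Of the assembly factors (38 of 48 tested), limma called Taco1, the translational activator of Mt-co1, lower in DMF at 4 h and no other. The same test called 3.41% of all genes. Taco1 had 52.6, 52.4 and 49.2 normalized counts against 85.9, 92.4 and 93.4 under DMSO, with no overlap (log2 fold change -0.81 ± 0.17, limma adjusted p = 0.0426). Its DMF effect was higher at 24 h than at 4 h by 0.83 (log2 scale, limma adjusted p = 0.0242). It was the only assembly factor called in that test, which called 4.12% of all genes. With the block, which called 23.0% of all genes, 7 of 38 assembly factors were called lower and 1 higher in DMF against DMSO at 4 h, a share near that of all genes (median of the list -0.08, all genes 0.00), among them the complex I factors Ndufaf4 (-0.40) and Foxred1 (-0.31) and the complex III factor Bcs1l (-0.38), lower, and Tmem126b (0.24), higher. Against MMF at 4 h, 9 were lower and 1 higher with the block, again near the 23.6% of all genes called. In the other 5 comparisons with a vehicle, limma called 0 of the assembly factors with or without the block, and at unadjusted p under 0.05 found 3 higher in MMF at 24 h and 2 lower in CBD at 24 h. DESeq2 and edgeR were not counted for these lists.

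Of the 20 genes of mitochondrial DNA maintenance and transcription, limma called 0 in DMF against DMSO at 4 h, with 2 lower at unadjusted p under 0.05. With the block 2 were lower and 1 higher (list median -0.17). These counts were below the 20.1% and 23.0% of all genes that passed these tests. Those lower with the block were Pnpt1, which takes part in mitochondrial RNA turnover (-0.40, block adjusted p = 0.00385 by limma), and Polg, the mitochondrial DNA polymerase (-0.31, 0.00208), and the higher one was Polrmt, the mitochondrial RNA polymerase (0.22, 0.0278). Against MMF at 4 h more of the 20 passed, with 6 lower at unadjusted p under 0.05. With the block 7 were lower and 1 higher there (list median -0.17). Of all genes, 17.4% and 23.6% passed these 2 tests. At 24 h Mterf2, a mitochondrial transcription termination factor family member, was higher in DMF than in MMF, with 323, 316 and 260 normalized counts against 188, 178 and 181 and no overlap (log2 fold change 0.71 ± 0.12, limma adjusted p = 0.0162). Mterf2 was the only gene of the list that limma called there without the block, where 3.56% of all genes were called. Against DMSO it stood at 0.51 (limma adjusted p = 0.0935, and 0.0223 with the block). The DMF effect on Pnpt1 was higher at 24 h than at 4 h by 0.49 (limma adjusted p = 0.0429). No other gene of the list was called in that test, which called 4.12% of all genes.

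Of 10 regulators of respiratory gene transcription, Nrf1, whose motif was counted above, was called lower in DMF at 4 h by limma, which called 3.41% of all genes. It had 505, 477 and 455 normalized counts against 655, 625 and 622 under DMSO, without overlap (log2 fold change -0.41 ± 0.08, limma adjusted p = 0.0428). Against MMF it stood at -0.44 (limma adjusted p = 0.06, and 8.06e-04 with the block). With the block, where 23.0% of all genes were called, 2 regulators were called higher in DMF against DMSO at 4 h. These were Esrra, the estrogen-related receptor alpha, with 85.8, 87.6 and 73.3 normalized counts against 64.9, 46.8 and 44.4 (log2 fold change 0.67, block adjusted p = 0.02 by limma), and Yy1, with 1077, 1162 and 1213 against 975, 1018 and 1043 (log2 fold change 0.18, block adjusted p = 0.0399 by limma). Of 17 tested electron carriers and shuttle proteins, Dhodh, which feeds electrons from pyrimidine synthesis to ubiquinone, was called lower in DMF at 24 h, with 338, 306 and 300 normalized counts against 410, 444 and 401 (log2 fold change -0.41, limma adjusted p = 0.0461), and lower than in MMF (-0.43, limma adjusted p = 0.0427). Dhodh was the only one of the 17 called in each of these comparisons, where limma called 3.97% and 3.56% of all genes. Of the 18 tricarboxylic acid cycle genes limma called 0 in all comparisons without the block, and at unadjusted p under 0.05 between 0 and 4 were found, the most in DMF against MMF at 24 h (4 of 18, all lower, where 9.18% of all genes passed on the lower side). With the block 2 of the 18 were called in DMF against DMSO at 4 h, both lower, a share below the 23.0% of all genes. They were Ogdh (log2 fold change -0.20, block adjusted p = 0.00943 by limma) and Idh2, the mitochondrial NADP-dependent isocitrate dehydrogenase. Idh2 had 1367, 1431 and 703 normalized counts against 2025, 1844 and 1383 (log2 fold change -0.64, limma adjusted p = 0.229, and 1.07e-04 with the block). The Idh2 groups overlapped, with library 3 the lowest in each, while DMF was lower within each replicate number. The lists were chosen with earlier results of these data known, and no test was run on a list as a whole.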

How the data were processed

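Poly(A) RNA from 30 libraries was sequenced in pairs on an Illumina instrument. Per the submitters' processing notes the authors used FastQC 0.12.1, cutadapt 4.4, Trimmomatic 0.39, HISAT2 2.2.1, HTSeq 2.0.3 and DESeq2 1.40.2 in R 4.3.1 with mRatBN7.2. The strand setting is not given in the sources used here. The deposited values are a signal, gene counts that the authors divided by DESeq2 size factors within each table of 6 libraries, so normalized counts are comparable only within a comparison. Of the 19 tables deposited, 8 were used and 11 were not, and the authors' own fold change and p-value columns were not used.

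Whole reads were recovered from 100.0% of 963534 values (within 0.01 of a read's step), giving 15108132 to 25367834 reads per library. Genes were filtered with filterByExpr (13967 to 14233 tested per comparison), and limma 3.58.1 (R 4.3.3) with a trend was run on log2(normalized count + 1), which understates changes of low genes. The Benjamini-Hochberg adjustment covered every gene tested, and calls were made at an adjusted p under 0.05. Recovered counts were also tested with edgeR 4.0.16 and DESeq2 1.42.0. Shares of reads were compared by two-sided exact permutation tests. The fitting steps were tested on simulated data.

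Same-numbered libraries deviated together (correlations 0.129 to 0.668 in the 8 comparisons, against at most 0.137 for different numbers), so the numbers were taken to pair the libraries and blocked values are given where they change a call. Members and gene lists were chosen with earlier results of these data known. Genes named were all 13 mitochondrial genes, members called or with the smallest p, the 2 most abundant nuclear members of each complex, and called genes of the further lists. In genes named for their small p, lack of overlap between groups follows in part from that choice. The share of all genes whose groups did not overlap is not given here. Results for 1 member are not reported here. Other genes are named in passing and were chosen after their values were seen. Tables were analysed with Python 3.11.15, NumPy 2.4.6, pandas 2.3.3, SciPy 1.17.1 and matplotlib 3.10.9.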

Additional observations from a re-analysis of the deposited data

Results flagged for a closer look

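The DMF minus MMF difference had 1 sign within every replicate number at 4 h and the opposite sign within every replicate number at 24 h for 3 values, and the difference between the times was not tested. These values were listed because they met this rule. How many would meet it by chance was not worked out, so their shared signs are no evidence of a change between the times. The median log2 ratio of the nuclear members, averaged over the 3 replicate numbers, was 0.04 at 4 h and -0.12 at 24 h. At 4 h it was 0.05, 0.01 and 0.06 within the 3 replicate numbers, and the median log2 fold change fell to 0.00 on leaving out a single library. For Cox5a, the matrix-side complex IV subunit, the mean log2 ratios were 0.18 and -0.22, and for Ndufb11 of complex I 0.06 and -0.27.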

How the results depend on the processing

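Without the replicate block limma called 0 members in the 8 comparisons. The replicate block called 4 nuclear and 2 mitochondrial members in DMF against DMSO at 4 h, 0 and 1 at 24 h, 1 and 1 in CBD against EtOH at 4 h, 4 and 4 in DMF against MMF at 4 h, and 3 and 1 at 24 h, and it changed no other call of a member in the 8 comparisons. Block fits with edgeR and DESeq2, added after seeing the data, called the following. In the same order, edgeR with the block called 4 and 2, 0 and 2, 1 and 1, 4 and 4, and 1 and 1. The genes limma tested in these comparisons numbered 14208, 13967, 14193, 14200 and 14233. Of them edgeR with the block called 1578, 858, 270, 1619 and 741 higher and 1634, 964, 102, 1710 and 975 lower. DESeq2 with the block called 0 and 2, 0 and 2, 0 and 1, 1 and 4, and 1 and 1. Of the same tested genes it called 877, 494, 55, 909 and 446 higher and 858, 641, 28, 831 and 678 lower. It also called 9 mitochondrial genes in CBD against EtOH at 24 h, where it called 2.12% of all genes. Without the block DESeq2 called 1 mitochondrial gene in DMF against MMF at 24 h, where it called 5.83% of all genes. A spread estimated from all 30 libraries called 1 nuclear member in DMF against DMSO at 4 h, 2 in CBD against EtOH at 24 h, 2 in DMF against MMF at 4 h and 1 at 24 h. Leaving out single libraries called 0 to 1 nuclear members in DMF against MMF at 24 h, the 1 being Ndufv1 without DMF library 3 (-0.30). For these last 2 kinds of fit the share of all genes called is not given here, so their counts cannot be set against it.

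Leave-one-out medians ran from -0.10 to 0.00 for the nuclear members in DMF against DMSO at 24 h, from 0.00 to 0.09 for them in DMF against MMF at 4 h, and from -0.21 to 0.04 for the mitochondrial genes there, whose share had log2 ratios of -0.30 to 0.03. The mitochondrial median also crossed or reached 0 on leaving out single libraries in DMF against DMSO at 4 h (-0.16 to 0.06), MMF against DMSO at 4 h (-0.09 to 0.15) and 24 h (-0.12 to 0.00) and DMF against MMF at 24 h (-0.11 to 0.04), and ran from -0.27 to -0.05 in CBD at 4 h and -0.66 to -0.22 at 24 h. With nuclear members as the denominator the log2 ratio of the mitochondrial share was -0.09 in MMF against DMSO at 24 h (-0.03 over all reads) and 0.13 in DMF against MMF at 24 h (0.01 over all reads). Signs turned for Ndufs5-ps2 in CBD at 4 h without EtOH library 3 (-0.01, leave-one-out range -0.01 to 0.35) and for Cox6b1 on chromosome 2 without EtOH library 1 (-0.01) or CBD library 1 (-0.02, range -0.02 to 0.30). The other fold changes of named members kept their sign, 746 on the same side of the threshold and 53 newly past it. The causes were not tested. Depth limited members under 1 CPM, and 3 libraries per group limited the mitochondrial genes, whose spread between replicate numbers was wide.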
